A study of Mus musculus with 2 samples.

Results

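Mir143 and Mir145a are microRNA genes that lie side by side on mouse chromosome 18. They were selected by their names among 1973 microRNA genes of the count tables, and both were found there. The material was whole heart of mouse embryos of strain B6NCrl at embryonic day 12.5, with males and females pooled and no treatment or allele named. There was 1 group of 2 biological replicates, each a separate biosample with 1 small RNA library, and the number of embryos behind each is not given in the labels. With a single group the design holds no contrast between conditions, so the questions here are how high each gene stood and how unequal the neighbours were. They also cover how far the 2 libraries differed. The libraries held 9235580 and 10601121 reads, of which 4478599 and 5279908 were counted to microRNA genes on the strand where these are annotated. Levels are given as CPM, a gene's sense counts per 1000000 such counts.

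MicroRNAs are short RNAs cut from hairpin precursors, and they lower the translation and stability of messenger RNAs that match their seed. Mir143 and Mir145a are known to be transcribed as a single primary RNA, which serum response factor and its cofactor myocardin switch on. In smooth muscle they favour the contractile state over the proliferating one, with the Krüppel-like factor genes Klf4 and Klf5 and the Ets factor gene Elk1 among known targets. They are known from cardiac progenitors in the early embryo and later from the smooth muscle of vessels. A deposited count is the sum over a whole gene, so the mature RNAs of the hairpin's arms are not told apart.

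The neighbours on the genome are long non-coding RNA genes known from the cardiac lineage. In the count tables Mir143 is ENSMUSG00000065445.2 and Mir145a is ENSMUSG00000065592.1. On GRCm38 with the GENCODE M21 annotation, Mir143 spans bases 61649196 to 61649258 of chromosome 18 on the minus strand, a hairpin of 63 bases. Mir145a spans bases 61647825 to 61647894 on the same strand, a hairpin of 70 bases, and 1301 bases lie between them. Neither overlaps another annotated gene. Upstream, 366 bases beyond Mir143, ends Carmn, a long non-coding RNA gene of the same strand (61649625 to 61665537). On the other side, 352 bases from Mir145a, ends Bvht, also called Braveheart, on the plus strand (61639542 to 61647472). The hairpins were 55.6% and 48.6% G and C for Mir143 and Mir145a, against a median of 52.5% over 711 hairpins of genes with a count. No stretch of 22 bases, nor of 18, in either hairpin occurs in another annotated transcript on either strand. Reads with several places on the genome were counted to no gene, and they made up 27.1% and 25.3% of the reads in replicates 1 and 2.

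Mir143 was among the most abundant microRNA genes of the embryonic heart by reads with 1 place in the genome. Mir145a stood far lower in the same libraries. Mir143 had 392602 counts in replicate 1 and 471082 in replicate 2, or 87662 CPM (95% Poisson interval 87388 to 87936) and 89222 CPM (88967 to 89477). Mir145a had 5059 and 6745 counts, or 1130 CPM (95% Poisson interval 1099 to 1161) and 1277 CPM (1247 to 1308). Every value of Mir143 lay above every value of Mir145a, and each gene's values lay close together in the 2 libraries. The means were 88442 ± 1103 CPM (SD, n = 2) for Mir143 and 1204 ± 105 CPM (SD, n = 2) for Mir145a. Together they took 8.96% ± 0.121 (SD, n = 2) of the counts on microRNA genes, 8.88% in replicate 1 and 9.05% in replicate 2. Intervals cover counting error only. No molecular identifiers are stated, so reads may not be independent and the intervals can be too narrow. In whole tissue, fewer cells of a type and less RNA per cell cannot be told apart.

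Mir143 held rank 3 in replicate 1 and rank 2 in replicate 2. Its ranks and those of Mir145a rest on reads with 1 place in the genome. Genes with several copies can therefore be placed too low. Mir335, from an intron of the imprinted gene Mest, lay above Mir143 in both libraries, at 119219 and 127503 CPM. Mir322, the mouse counterpart of human MIR424, had 88188 CPM in replicate 1 and 76341 in replicate 2, so its values overlapped those of Mir143 and the order of these 2 genes turned between the libraries. Mir99a, next after Mir322, had 74065 and 72343 CPM, and the endothelial Mir126a 67024 and 68770 CPM, and neither overlapped Mir143. A read stands for a whole short RNA, so levels were not divided by length as they would be for messenger RNA. Per base of the annotated hairpin, Mir143 would take rank 1 in both libraries, with 1404 CPM per base on average against 1259 for Mir335, whose hairpin is annotated at 98 bases.

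Mir145a held rank 75 in each library and lay above 89.5% of the 712 genes that had any count. Its neighbours in the order were close. Mir27b had 1241 and 1372 CPM, Mir301 1090 and 1421 CPM, and the erythroid Mir451a 770 and 1671 CPM. Just below it stood Mir337, with 1242 and 1142 CPM, and Mir302b, of the pluripotency cluster mir-302, with 1207 and 1111 CPM. The ranges of these 5 genes overlapped that of Mir145a (1130 to 1277 CPM), so their order is not fixed by these libraries, while Mir872, at 1100 and 1095 CPM, lay just below it without overlap. With 2 libraries no likeness of pattern between genes can be measured, and these are neighbours in level alone.

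**Figure D1:**
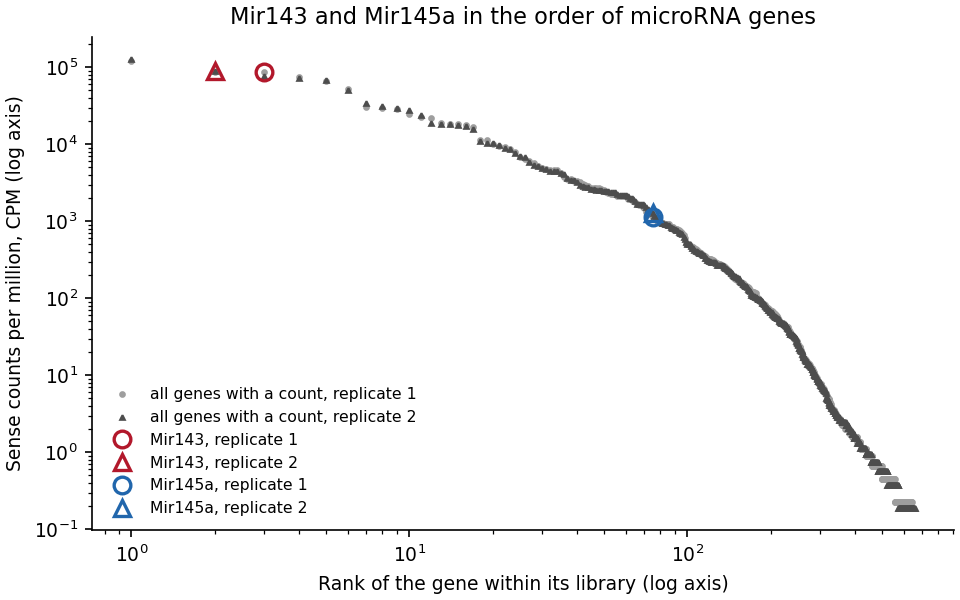
Level of every microRNA gene with a count, in CPM on a log axis, against its rank within its library on a log axis. Circles are replicate 1 and triangles replicate 2. Mir143 (red) sits at ranks 3 and 2 near 88442 CPM, and Mir145a (blue) at rank 75 near 1204 CPM in both libraries.

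Within each library Mir143 exceeded its neighbour many times over. The ratio of Mir143 to Mir145a counts was 77.6 (95% Clopper-Pearson interval 75.5 to 79.8) in replicate 1 and 69.8 (68.2 to 71.6) in replicate 2, with a mean of 73.7 ± 5.49 (SD, n = 2). Mir145a thus made up 1.27% and 1.41% of the counts of the pair. The ratio was lower in replicate 2 by a factor of 0.900 (95% counting interval 0.868 to 0.934), a difference larger than counting error but small beside the ratio itself. Per base of hairpin the ratio was 81.9 ± 6.10 (SD, n = 2). How well the library preparation captures each of the short RNAs was not tested, and an error that both libraries share would not show in their spread.

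Such inequality was seen in other pairs of neighbours too. Clusters were built from the deposited microRNA genes with a position in M21, on 1 strand with starts within 10 kb. Of these, 79 held exactly 2 genes, and in 36 the higher member had at least 10 CPM in both libraries. A neighbour missing from the deposited genes was not seen, so a pair can be part of a larger cluster. By the log2 ratio of the higher to the lower member, on log2(CPM + 1), Mir143 and Mir145a held place 10 of 36, at 6.28 in replicate 1 and 6.12 in replicate 2, against a median of 3.93. The 5 clusters with the highest values were Mir99a with Mirlet7c-1 (10.59), Mir30e with Mir30c-1 (8.92), Mir199b with Gm23363 (8.11), Mir328 with Gm27320 (8.05) and Mir100 with Mirlet7a-2 (7.26). Next to the pair stood Mir214 with Mir199a-2 (6.21) above and Mir130b with Mir301b (5.80) below. In 4 of those 5, all but the cluster of Mir328, and in that of Mir214, a member has near-identical copies elsewhere, so its own level can be undercounted.

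Among the 18 clusters whose members all occur in 1 copy, Mir143 and Mir145a held place 3, and the median was 2.93. The clusters above them there had almost no reads at their lower member, with 0 and 0 counts at Gm27320 and 4 and 3 counts at Gm24572. Mir145a differed from those members in being well covered. In 6 of the 36 clusters the lower member averaged at least 1000 CPM, a limit set after the values were seen, and there the ratio of this pair was the highest. Mir23b with Mir27b followed, at 9.29 in replicate 1 and 8.03 in replicate 2, and Mir99b with Mir125a, at 7.70 and 6.56. The other 3 of these clusters had ratios between 0.991 and 1.34 in the libraries. Apart from this pair, the higher members of the 6 clusters averaged at most 17829 CPM (Mir99b). Under the limit of 1000 CPM none could reach the ratio of Mir143 to Mir145a, so the first place follows from the level of Mir143. The ratio of Mir143 to Mir145a moved between the libraries by 0.15 on the log2 scale, against a median absolute change of 0.24 over the 36 clusters, and 8 of them moved less. These are descriptions, since clusters are not replicates.

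**Figure D2:**
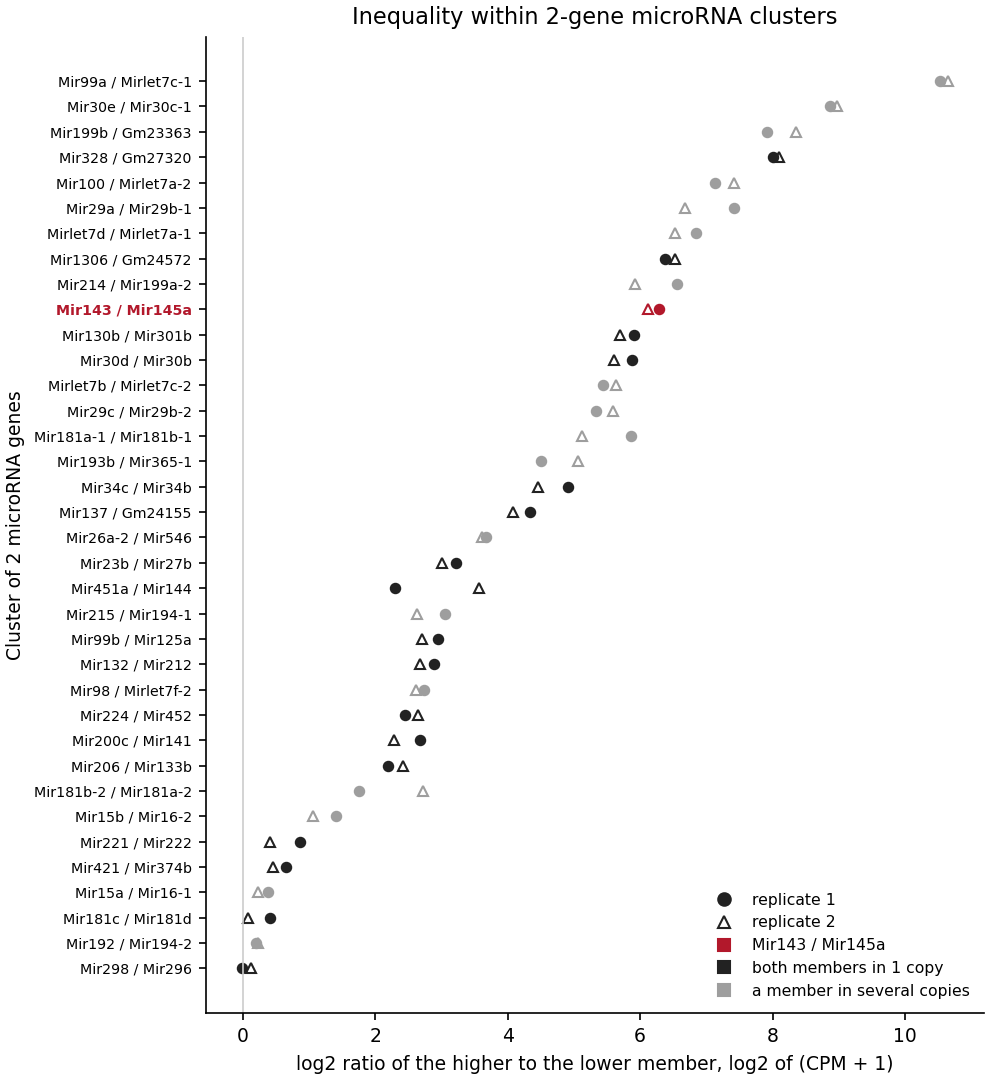
Log2 ratio of the higher to the lower member, on log2(CPM + 1), for 36 clusters of 2 deposited microRNA genes, ordered by the ratio of their mean levels. Circles are replicate 1, open triangles replicate 2, grey marks clusters with a member in several copies, and the line at 0 stands for equal levels. Mir143 with Mir145a (red) lies at 6.28 and 6.12, above the other clusters in black except those of Mir328 and Mir1306.

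Both genes differed slightly between the libraries, and both were higher in replicate 2. The log2 ratio of Mir143 was 0.03, a ratio of 1.018 with a 95% counting interval from 1.013 to 1.022 (adjusted p = 5.65e-15, exact binomial test with Benjamini-Hochberg adjustment over 712 genes). That of Mir145a was 0.18, a ratio of 1.13 with an interval from 1.09 to 1.17 (adjusted p = 5.3e-10, same exact test). At an adjusted p below 0.05, 119 of 712 genes (16.7%) passed this test in either direction and 57 (8.01%) were higher in replicate 2. Of the 77 genes with at least 1000 CPM in both libraries, 64 passed, so most genes above that level were called. With a ratio of 2-fold as a second condition 3 of 712 genes (0.421%) passed, and neither Mir143 nor Mir145a was among them. The test compares 2 libraries of a single condition and holds counting error alone.

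The size of the differences says more than the calls at this depth. Among those 77 genes the median absolute log2 ratio was 0.09. The difference of Mir143 exceeded that of 9 of the genes, and the difference of Mir145a exceeded that of 59. With this scaling, Mir143 was therefore closely repeated among these 77 genes, most of them far lower in level, and Mir145a less closely than most. These places rest on scaling by the sum of sense counts. With TMM scaling, described below, the log2 ratio of Mir143 was 0.05, and places under that scaling are not given here.

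**Figure D3:**
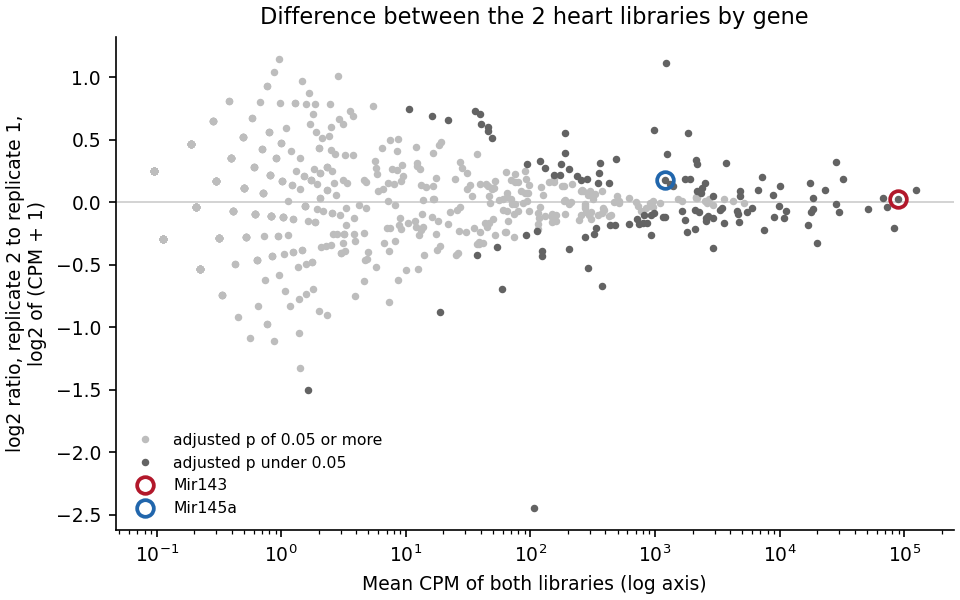
Log2 ratio of replicate 2 to replicate 1, on log2(CPM + 1), against mean CPM on a log axis, with 1 point for each of 712 genes and dark points for an adjusted p below 0.05. Mir143 (red ring) lies at 0.03 and Mir145a (blue ring) at 0.18.

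Next to microRNAs of other heart cell types, Mir143 had more counts than any single marker gene, as far as reads with 1 place in the genome can show. The cardiomyocyte genes that lie in introns of myosin heavy chain genes were present. Mir208b had 51846 and 49990 CPM, Mir208a 9998 and 9772 CPM, and Mir499 2114 and 2162 CPM in replicates 1 and 2. Mir143 exceeded Mir208b by a ratio of 1.74 ± 0.0665 (SD, n = 2) and the endothelial Mir126a by 1.30 ± 0.00744 (SD, n = 2). Per base of hairpin these ratios were 2.12 ± 0.0812 and 1.51 ± 0.00862 (SD, n = 2). Mir145a, in contrast, was lower than Mir499, with a ratio of 0.563 ± 0.0399 (SD, n = 2), or 0.635 ± 0.0451 per base. The cardiomyocyte list as a whole held 6.29% ± 0.143 (SD, n = 2) of the counts. At 10 CPM in both libraries were 284 of the 712 genes with a count, and 3 of the 6 genes of this list. The other 3, Mir1a-1, Mir133a-1 and Mir133a-2, have several copies, and Mir1a-2 was not analysed here. Their reads can be missed, so the list's share can be too low, and whether Mir143 exceeds mir-1 or mir-133 cannot be told from these counts. The endothelial list had 1 gene in the tables, Mir126a, at 6.79% ± 0.123 (SD, n = 2).

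The mesenchyme and fibroblast list held a share of 3.63% ± 0.0361 (SD, n = 2). Of the 712 genes with a count, 284 reached 10 CPM in both libraries, and 8 of the 11 in this list did. The highest were Mir21a, a gene linked to fibrosis, at 28354 and 28059 CPM, Mir214 at 3507 and 3403 CPM, and Mir140, known from cartilage, at 3385 and 3249 CPM. Mir143 exceeded Mir21a by a ratio of 3.14 ± 0.0623 (SD, n = 2), or 4.58 ± 0.0910 per base. Mir145a was lower than Mir214, with a ratio of 0.349 ± 0.0377 (SD, n = 2), or 0.548 ± 0.0592 per base. Their median level was 289 CPM, against 2.53 CPM over the 712 genes with a count, and 6 of the 11 have several copies.

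The lists for the remaining cell types took smaller shares than Mir143, and their part in the level of the cluster was not tested. The erythroid Mir451a overlapped Mir145a in level, as given above. The epithelial list took 0.146% ± 0.00174 (SD, n = 2), and its highest were Mir429, Mir203 and Mir182. In this list 10 of 10 genes reached 10 CPM in both libraries, against 284 of the 712 genes with a count. The erythroid list ranged from 0.0986% to 0.186% between the libraries, with 3 of 3 genes at 10 CPM. Of these 3 genes only Mir451a was higher in replicate 2. In replicates 1 and 2 Mir144 had 156 and 140 CPM, and Mir486 had 60.3 and 46.8 CPM. White blood cell genes took 0.0318% and 0.0331% by sense counts, with Mir142b at 0 on its own strand. A further 4901 and 4951 counts fell on the other strand of Mir142b, the strand of Mir142, which was not analysed here as a gene of its own. With them the share was 0.141% in replicate 1 and 0.127% in replicate 2. The liver gene Mir122 took 0.0181% and 0.00324%. Skeletal muscle genes took 0.00346% and 0.00284%, and neuronal genes 0.000201% and 0.0000947%, with Mir9-2, Mir124a-2 and Mir124a-3 at 0 in both libraries. All 5 neuronal genes in the tables have several copies, so these zeros and that share can be undercounts and do not show a low level.

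**Figure D4:**
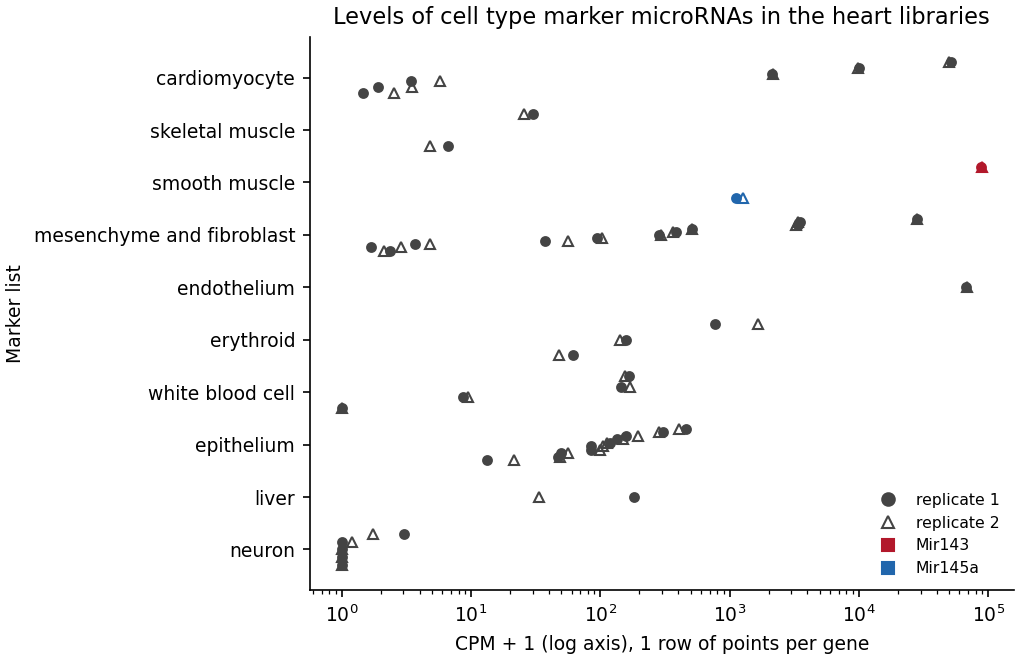
Level of each marker microRNA as CPM + 1 on a log axis, grouped by cell type, with 1 row of points per gene, circles for replicate 1 and open triangles for replicate 2. Mir143 (red) lies to the right of every other marker by these counts, which can miss reads of genes with several copies, and Mir145a (blue), near 1204 CPM, lies below the highest genes of the cardiomyocyte, mesenchyme and endothelium lists.

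Other microRNAs known to act in smooth muscle were mostly far below Mir143, as were most of the 712 genes with a count. A list of 20 genes known to act in smooth muscle was used, of which 19 were in the tables. Of these, 13 reached 10 CPM in both libraries, against 284 of the 712 genes with a count. Together the 19 took 3.46% ± 0.0704 (SD, n = 2) of the counts, less than Mir143 alone. Most of this share was Mir21a, with a mean of 28206 CPM, which is also in the mesenchyme and fibroblast list. Mir1a-1, Mir133a-1 and Mir133a-2 are in the cardiomyocyte list too. Their median was 25.8 CPM, against 2.53 CPM over the 712 genes. The highest were Mir21a, then Mirlet7d, a let-7 gene, at 3282 and 2545 CPM, and Mir10a, of a Hox cluster, at 1515 and 1542 CPM. Mir145a lay below Mir10a in both libraries. Mir221 and Mir222, which are linked to smooth muscle growth, had 26.3 and 25.2 CPM and 14.1 and 18.8 CPM. Of the 19 genes 10 have several copies, Mir133a-1 and Mir26a-1 among them, so their levels and the list's share can be undercounted. In the test between libraries 0 of the 19 were higher in replicate 2, against 8.01% of all 712 genes. Lower in replicate 2 were 2 of the 19, Mir21a (log2 ratio −0.02) and Mirlet7d (−0.37), against 62 of the 712 (8.71%).

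Mir145b, the gene whose name marks it as a relative of Mir145a, had no counts. It lies on the same chromosome and strand, from 69022199 to 69022273. It had 0 counts in both libraries on either strand, and the limits that a count of 0 allows were 0.670 and 0.568 CPM. Its hairpin shares no stretch of 18 bases with that of Mir145a. Mir143 and Mir145a likewise had 0 counts on the strand opposite to them, so their counts without regard to strand equal those used here.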

How the data were processed

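Small RNA was sequenced from 2 libraries of a single group. The authors deposited 1 table of raw read counts for each library, with microRNA genes as rows, and per the descriptions deposited beside the tables they rest on assembly mm10 and annotation M4. The software that aligned and counted the reads is not given in the sources used here. The 3 columns of counts have no names and were read, from their sums, as without strand, sense and antisense, and sense counts were used. The 4 rows that name no gene stayed out of library sizes, and in replicates 1 and 2 they held 18.1% and 19.1% unmapped reads, 27.1% and 25.3% reads with several places, 6.29% and 5.88% outside genes and 0 ambiguous.

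Names and positions came from GENCODE M21, which holds 1894 of 1973 identifiers. The identifiers of both genes carry an older version number in the tables, so the spans counted may differ from those of M21. CPM used the sum of sense counts, and 1 CPM was added before log2. Copies were genes whose hairpin shares 22 bases with another or that have a numbered twin. Libraries were compared by the exact binomial test. It was checked first on simulated Poisson counts, with calls made only at a ratio of 2-fold or more. That check does not cover calls without a fold limit, nor spread beyond counting error. Scaling alternatives were TMM (edgeR 4.0.16) and DESeq2 1.42.0 in R 4.3.3, and other steps used Python 3.11.15, scipy 1.17.1 and pandas 2.3.3.

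The genes and the 11 lists were chosen with earlier results of these data known. Named genes were the pair, the 3 genes above and below each in level, the listed markers (for long lists the 3 highest and those at 0), and the 5 highest 2-gene clusters with those next to the pair. Others were named after their values were seen. Seed sharing was not analysed here, and sequences of the pair are not reported here.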

Additional observations from a re-analysis of the deposited data

How the results depend on the processing

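With 2 libraries, the spread of a value rests on a single difference, and counting error was small at these depths. No paired analysis was possible because there is only 1 group. Without replicate 1 or without replicate 2 the level of Mir143 was 89222 or 87662 CPM, that of Mir145a 1277 or 1130 CPM, the joint share 9.05% or 8.88%, and the ratio 69.8 or 77.6. The rank of Mir143 was 2 or 3, that of Mir145a 75 either way, and the place of the pair among clusters 9 or 10.

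Levels followed the denominator. With all reads as the denominator Mir143 stood at 43473 CPM, Mir145a at 592 CPM and both at 4.41%. Without Mir335 in the denominator they stood at 100894 CPM, 1373 CPM and 10.2%. With counts without regard to strand Mir143 stood at 84563 CPM and both at 8.57%, and Mir145a took rank 80. Per base of hairpin, an alternative added after the data were seen, the ratio was 81.9 and the ranks were 1 and 69. Among clusters in 1 copy the pair took place 3 of 18, and with 5 CPM added before log2 place 6 of 36. The cluster distances of 5 and 50 kb, the minimum of 100 CPM and the addition of 0.5 CPM left it at place 10.

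The log2 ratios between libraries kept their sign and their call under TMM (0.05 for Mir143 and 0.20 for Mir145a) and DESeq2 scaling (0.03 and 0.19), without regard to strand and with 0.5 or 5 CPM added. The number of genes called ran from 113 to 128 over the alternatives.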

Other observations

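Nearly all sense counts on the microRNA genes of chromosome 18 that are in the tables came from Mir143 and Mir145a. They held 99.7% of these counts in replicate 1 and 99.8% in replicate 2, although 50 of its microRNA genes are in the tables and 15 had a count. The others together had 1392 and 802 counts. The highest were Mir187, at 122 and 108 CPM, and Mir122, a hepatocyte microRNA, at 181 and 32.4 CPM. Mir133a-1, with 4 and 13 counts, has several copies and can be undercounted. Counts opposite to a gene, such as 63 and 108 at Mir1b, are not in these shares. Mir1a-2, which was not analysed here, is not in them either.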
